A study of Mus musculus with 6 samples.

Results

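Irradiated hearts of mice labelled STING knockout were compared with sham-treated hearts of wild-type mice, to ask which transcripts of the cardiac CD45+ cell preparation differed from sham although the genotype label gave STING as absent. The comparison rested on 4 of the 6 libraries of the series, 2 sham wild-type and 2 irradiated knockout-labelled, and 2 irradiated wild-type libraries were measured alongside. All mice were labelled C57Bl6J, and the third group carried the genotype label STING KO and the word Tmem in its titles. Irradiated hearts received 12 Gy in 1 fraction from a small-animal irradiator, sham hearts received none, and cells were taken at 28 days, so every group had the same time point and the same CD45+ gate. No knockout-labelled sham library was analysed here, so genotype, radiation and library cannot be told apart within this contrast. The labels used do not describe the altered allele. They also leave unsaid whether the paired libraries of a group are different animals, and every p-value here therefore reflects library-to-library spread, which may be technical.

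Cells were kept with at least 200 detected genes and at most 10% of their UMIs (unique molecular identifiers, each marking a captured transcript) from mitochondrial genes. The 4 libraries held 22934 of the 32761 kept cells: 4695 and 6219 in sham libraries 1 and 2, and 5852 and 6168 in knockout-labelled libraries 1 and 2. Lineages were set by marker UMIs: at least 10 of C1qa, C1qb and C1qc for macrophages, and at least 2 of Cd3e, Cd3d and Cd3g for T cells, of Cd79a and Cd79b for B cells, and of Pecam1 and Cdh5 for endothelial cells. A cell had to meet exactly 1 rule, which gave 8855 macrophages, 2589 B cells, 1683 endothelial cells and 706 T cells in the 4 libraries. A further 6799 cells met no rule and 2302 met more than 1, and these stayed out. UMIs were summed over the cells of a lineage in each library, and values below are CPM, given for library 1 and then library 2. CPM are a gene's UMIs relative to the UMIs of all tested genes in the sum, on the usual scale. That total was first scaled between libraries by edgeR's TMM factors. Log2 fold changes, their standard errors (SE) and Benjamini-Hochberg adjusted p-values came from edgeR's quasi-likelihood test over all 6 libraries, and a gene was called at an adjusted p under 0.05. In sums of a mixed lineage, fewer cells of a kind and less RNA per cell cannot be told apart.

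STING, encoded by Tmem173, is an adaptor on the endoplasmic reticulum. It responds to the cyclic dinucleotide that cGAS makes on cytosolic DNA and drives type I interferon, and interferon in turn raises a set of interferon-stimulated genes through dedicated transcription factors. Radiation damages DNA and stabilises the transcription factor p53, which raises genes of cell cycle arrest, apoptosis and repair. The heart holds long-lived resident macrophages, known for Timd4, Lyve1, Folr2 and Cd163, and monocyte-derived macrophages, known for Ccr2, the receptor through which monocytes follow the chemokine CCL2 out of the blood.

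Tmem173 transcript was measured first, as a check of the genotype label. Its level in macrophages was 46.7 and 44.5 CPM in sham, 47.5 and 45.6 CPM in the knockout-labelled libraries and 55.2 and 52.8 CPM in irradiated wild type. The log2 difference from sham was 0.03 (SE 0.07, adjusted p = 0.84), and in T, B and endothelial cells it was 0.15, 0.23 and 0.09, none of them called. The transcript was therefore not lower in the libraries labelled knockout. Since reads come from the 3' end of the transcript, a change elsewhere in the gene or in the protein would not be seen, and the files cannot check the label.

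Library-wide properties differed between the groups. Kept cells had a median of 4517 and 4764 UMIs in sham and of 7018.5 and 6456 in the knockout-labelled libraries, and 23.2% to 33.4% of barcodes per library exceeded the mitochondrial limit. The knockout-labelled libraries shared 30 cell barcodes, against 4 to 12 in each of the other 14 pairs of libraries. Summed UMIs of macrophages were 11865479 to 23938858 per library. Shares of kept cells were compared with an exact two-sided permutation test, whose smallest possible p with 2 against 2 is 0.33, so no share could pass a threshold of 0.05. Macrophages made up 40.3% ± 5.08 of cells in sham and 37.5% ± 0.852 in the knockout-labelled libraries (SD, n = 2 each, exact permutation p = 1). Endothelial cells made up 6.42% ± 0.374 and 8.27% ± 3.70 (SD, n = 2 each, exact permutation p = 1), B cells 11.0% ± 0.954 and 11.4% ± 1.45 (exact permutation p = 1) and T cells 3.64% ± 0.693 and 2.49% ± 0.649 (exact permutation p = 0.33). Lineage markers checked against further genes were present: the median detection over each lineage's own marker list was 87.7% of macrophages, 54.9% of T cells, 75.2% of B cells and 84.7% of endothelial cells. Endothelial cells are not expected behind a CD45+ gate, and Ptprc, which encodes CD45, was detected in 16.3% of them over all 6 libraries.

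A few transcripts set the knockout-labelled libraries apart from the other 4 in several lineages. Gm10076 was called lower than sham in all 4 lineages and AY036118 higher in all but T cells, and neither was called in irradiated wild type against sham. Gm42418, Xist and Ddx3y were singled out after their values had been seen, as was the description of Gm10076 and AY036118 over lineages. Gm10076 (ribosomal-protein-like, chr14:105681828-105682211, plus strand, GRCm38) was at 961 and 1134 CPM in sham macrophages, 268 and 281 CPM in the knockout-labelled libraries and 1400 and 1187 CPM in irradiated wild type. AY036118 (chr17:39847113-39848035, minus strand), which lies near ribosomal RNA sequence, was at 23.4 and 29.6 CPM in sham macrophages, 92.2 and 93.7 CPM in the knockout-labelled libraries and 27.5 and 24.3 CPM in irradiated wild type. The differences from sham were -1.93 and 1.81 on the log2 scale in macrophages and -2.08 and 2.03 in endothelial cells. Gm42418, in the same ribosomal region, rose by 1.01 in macrophages. Xist, the RNA of X inactivation, was at 415 and 402 CPM in sham macrophages and 611 and 690 CPM in the knockout-labelled libraries, and the Y-linked Ddx3y was at 50.1 and 53.3 CPM and 33.8 and 30.6 CPM, so all 4 libraries held transcripts of both sexes. Ddx3y was also called lower in irradiated wild-type macrophages, by a log2 difference of -0.33, and neither Xist nor Ddx3y was called against sham in the other 3 lineages. The Y-linked genes Eif2s3y, Kdm5d and Uty, also picked after the values had been seen, were not called in the knockout-labelled macrophages. Their log2 differences from sham were -0.26, -0.16 and -0.46 (adjusted p = 0.21, 0.57 and 0.11). Xist overlaps its antisense gene Tsix, and no source used here gives the strand setting of the counting. The part of these library-wide differences in the results that follow was not tested.

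**Figure D1:**
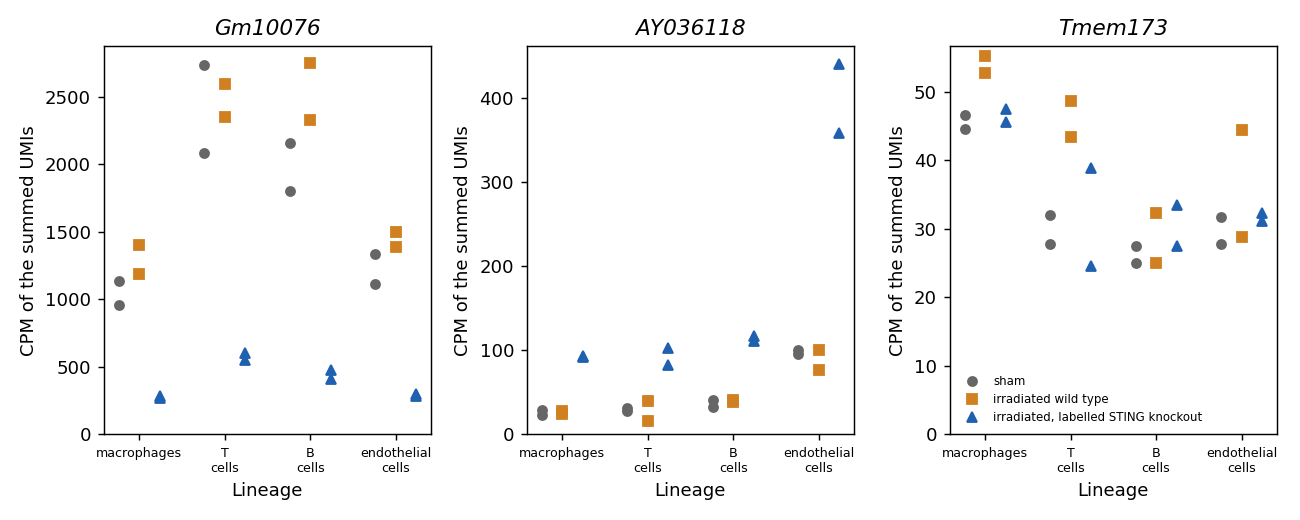
Level in CPM (linear axis) of Gm10076, AY036118 and Tmem173 in the summed UMIs of each lineage, where each point is a library, coloured by group. Gm10076 is lower and AY036118 higher in both knockout-labelled libraries in all 4 lineages, while Tmem173 is not lower than sham in both knockout-labelled libraries in any lineage.

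Upstream sequences are shown for 4 genes of the 2 programmes that the results turn on, the interferon-stimulated genes and the p53 targets. Each is the 250 bases before the transcription start in the RefSeq promoter table for GRCm38.p6, printed 5′ to 3′ on the gene's strand. Isg15 (chr4:156200819-156201068, minus strand) encodes a ubiquitin-like interferon-induced protein, and Ifit3 (chr19:34583279-34583528, plus strand) an interferon-induced RNA-sensing partner protein. Capitals in both mark matches to the interferon-stimulated response element (a run of GAAA, any 2 bases and a further run of GAAA, over 10 bases in all, searched on both strands, where matches may overlap): 3 overlapping matches upstream of Isg15 and 2 upstream of Ifit3 on the opposite strand.
Isg15: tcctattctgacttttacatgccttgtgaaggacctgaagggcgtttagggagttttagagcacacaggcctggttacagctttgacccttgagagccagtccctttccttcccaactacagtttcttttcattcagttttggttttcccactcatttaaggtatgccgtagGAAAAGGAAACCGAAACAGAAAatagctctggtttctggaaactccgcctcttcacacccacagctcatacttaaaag
Ifit3: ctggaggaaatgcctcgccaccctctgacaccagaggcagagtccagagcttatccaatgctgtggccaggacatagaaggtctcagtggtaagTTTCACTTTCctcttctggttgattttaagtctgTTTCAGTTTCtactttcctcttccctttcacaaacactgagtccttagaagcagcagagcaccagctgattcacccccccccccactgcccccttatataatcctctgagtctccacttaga
Ccng1 (chr11:40755287-40755536, minus strand) encodes cyclin G1, and Cdkn1a (chr17:29090729-29090978, plus strand, upstream of 1 of its listed starts) encodes p21, the cyclin-dependent kinase inhibitor of p53-driven arrest. Capitals in these mark a match to the p53 response element, searched over 20 bases as 2 adjacent half-sites with the core C and G of each intact and at most 1 mismatch elsewhere. The element reads alike on both strands.
Ccng1: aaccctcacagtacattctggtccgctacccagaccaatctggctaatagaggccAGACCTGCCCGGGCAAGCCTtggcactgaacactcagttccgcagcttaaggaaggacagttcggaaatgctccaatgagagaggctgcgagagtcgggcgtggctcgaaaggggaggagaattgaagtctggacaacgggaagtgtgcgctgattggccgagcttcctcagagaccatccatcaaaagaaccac
Cdkn1a: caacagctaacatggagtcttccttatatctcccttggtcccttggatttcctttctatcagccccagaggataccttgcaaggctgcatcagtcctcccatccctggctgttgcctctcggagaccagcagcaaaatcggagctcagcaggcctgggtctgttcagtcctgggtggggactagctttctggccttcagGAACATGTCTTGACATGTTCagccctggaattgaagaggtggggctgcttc

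Over the whole promoter table, 3.44% of 32851 promoters held the interferon element and 0.067% the p53 element in a window of 300 bases. Of the interferon-stimulated genes 46 of 59 matched the table and 24 of these (52.2%) held the interferon element, and none held the p53 element. Of the p53 targets 30 of 40 matched, 4 of these (13.3%) held the p53 element (Rps27l, Ccng1, Gtse1 and Cdkn1a) and 1 (3.33%) the interferon element. A match is a description of the letters and not of binding.

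In macrophages, 467 of 13096 tested genes (3.57%) were higher in the knockout-labelled libraries than in sham and 449 (3.43%) were lower, and for every called gene the libraries of the groups did not overlap. The genes that rose included Ccr2, the elastase gene Mmp12 and 25 genes of DNA replication and mitosis, and those that fell included Cd163, 10 further genes of the resident macrophage list, Apoe and 14 immediate early genes. In irradiated wild type 738 genes (5.64%) were higher and 558 (4.26%) lower than in the same sham libraries. A direct test of the knockout-labelled against the irradiated wild-type macrophages called 31 genes higher (0.237%) and 53 lower (0.405%), and 9 of the lower ones were on the list of interferon-stimulated genes. Leaving out knockout-labelled library 2 left 148 of the 916 calls against sham in number, leaving out library 1 left 391, leaving out sham library 1 or 2 left 537 or 389, and a mitochondrial limit of 5%, which left 1942 macrophages, gave 27. Genes described with all library values below were called under each leave-one-out fit unless a sentence says otherwise.

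Ccr2 (chr9:124101950-124113557, plus strand) was at 147 and 91.6 CPM in sham macrophages, 481 and 548 CPM in the knockout-labelled libraries and 444 and 376 CPM in irradiated wild type. It rose by 2.11 on the log2 scale (SE 0.21, adjusted p = 0.0039), and the knockout-labelled and irradiated wild-type libraries differed by 0.33 (adjusted p = 0.42). Both irradiated groups lay above both sham libraries, with the knockout-labelled libraries at the top. Ccr2 was detected in 15.4% and 12.7% of sham macrophages and in 59.8% and 61.6% of those of the knockout-labelled libraries. The macrophages of these libraries were deeper, with a median of 8794 to 9199.5 UMIs against 5109 to 5569 in sham, so cells were also thinned to 2000 UMIs, which left out shallower cells and kept 3889 and 5344 sham cells and 5280 and 5399 cells of the knockout-labelled libraries, with lineages assigned again. Thinned detection was 10.3% and 8.34% in sham and 43.6% and 46.1% in the knockout-labelled libraries. Endothelial cells, which should lack Ccr2, gave 3.50% and 3.39% in sham and 5.49% and 9.74% in the knockout-labelled libraries with all UMIs, at median depths of 5876 to 5886 and 7571 to 8479. Thinned, they gave 1.13% and 1.27%, and 0.951% and 2.42%.

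Further genes with the largest rises included an enzyme, a channel and secreted proteins. Mmp12, the macrophage elastase, was at 94.1 and 74.0 CPM in sham, 228 and 196 CPM in the knockout-labelled libraries and 283 and 219 CPM in irradiated wild type (log2 1.34 against sham, SE 0.16, adjusted p = 0.0062). Kcnn4, a calcium-activated potassium channel, was at 11.5 and 7.83 CPM in sham, 28.2 and 36.3 CPM in the knockout-labelled libraries and 40.5 and 35.9 CPM in irradiated wild type (log2 1.75, SE 0.19, adjusted p = 0.005). For both genes the irradiated groups overlapped each other and lay above sham. Olfm1, which encodes a secreted olfactomedin, was at 25.87 and 19.9998 CPM in sham and 61.8 and 62.6 CPM in the knockout-labelled libraries (log2 1.44, SE 0.12), and the ribonuclease gene Ear2 was at 33.4 and 22.2 CPM and 79.8 and 85.7 CPM (log2 1.58, SE 0.17). Of 20 tested genes of monocyte-derived macrophages 5 rose (S100a4, Cd52, Napsa, Lsp1 and Ccr2) and none fell, with a median log2 difference of 0.31 against 0.00 over all tested genes. The count was 1 without sham library 1, without knockout-labelled library 1 or without knockout-labelled library 2, and 0 at the 5% mitochondrial limit.

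Cd163 and other genes of the resident macrophage list fell. Cd163 (chr6:124304656-124330527, plus strand), the haemoglobin-haptoglobin scavenger receptor, was at 371 and 363 CPM in sham, 104 and 94.3 CPM in the knockout-labelled libraries and 91.3 and 132 CPM in irradiated wild type, a log2 difference from sham of -1.89 (SE 0.16, adjusted p = 0.0028). Sgce (chr6:4674350-4747207, minus strand), which encodes epsilon-sarcoglycan, was at 32.9 and 30.3 CPM in sham and 4.86 and 4.43 CPM in the knockout-labelled libraries (log2 -2.76, SE 0.12, adjusted p = 0.00051), and at 7.27 and 8.37 CPM in irradiated wild type. Gpnmb, a lysosomal membrane glycoprotein gene, was at 23.1 and 20.6 CPM in sham and 3.17 and 4.79 CPM in the knockout-labelled libraries (log2 -2.45, SE 0.21). None of these genes differed at the threshold between the irradiated groups, and both irradiated groups lay below sham without overlap. Tcim fell from 53.003 and 66.6 CPM to 9.48 and 11.3 CPM, Cpne8, a calcium-dependent membrane-binding copine, from 21.7 and 21.7 CPM to 4.36 and 5.67 CPM, and the collagen prolyl hydroxylase gene P3h2 from 37.4 and 28.5 CPM to 8.71 and 8.39 CPM. Of 26 tested resident macrophage genes 11 fell and 1, Retnla, rose, with a median log2 difference of -0.45. Examples are Colec12, a scavenger receptor, which fell by 1.63 (SE 0.18), and the phosphatidylserine receptor gene Timd4, which fell by 1.83 and was singled out from the list after its value had been seen. Lyve1, the hyaluronan receptor, was at 398 and 556 CPM in sham and 365 and 320 CPM in the knockout-labelled libraries and was not called (log2 -0.48, adjusted p = 0.27). The count of falling resident genes was 5 without sham library 2 or without knockout-labelled library 2, and 2 at the 5% mitochondrial limit.

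**Figure D2:**
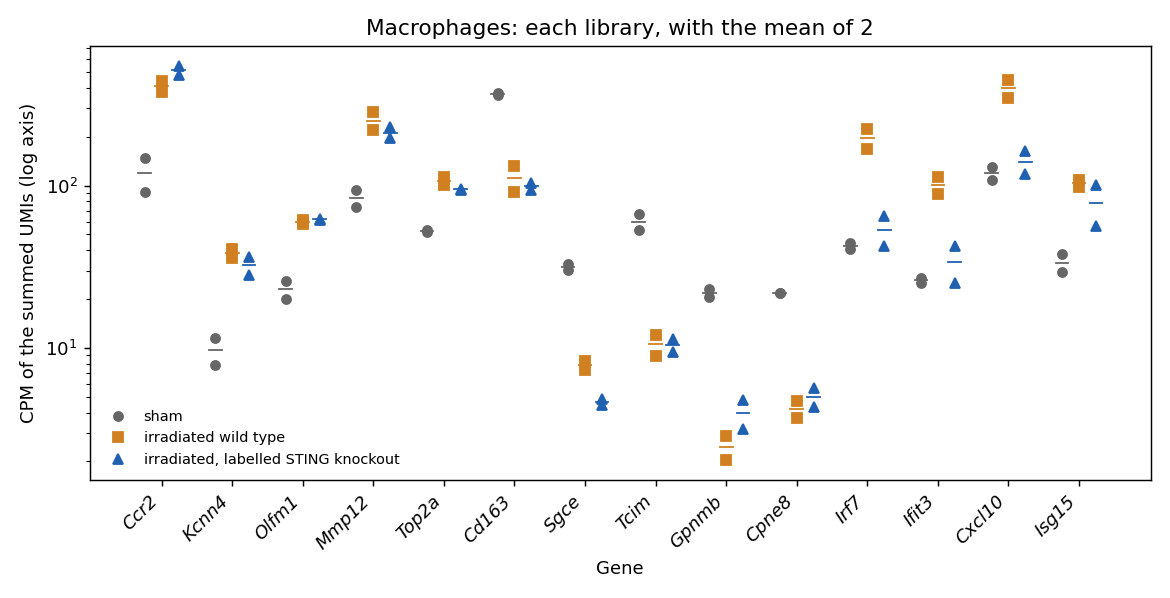
Level in CPM (log axis) of 14 genes in summed macrophages; each point is a library, coloured by group, and the bar is the mean of the 2 libraries. Ccr2, Kcnn4, Olfm1, Mmp12 and Top2a lie higher and Cd163, Sgce, Tcim, Gpnmb and Cpne8 lower than sham in both irradiated groups, while Irf7, Ifit3 and Cxcl10 are highest in the 2 irradiated wild-type libraries.

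Macrophages were also split by marker UMIs after thinning to 2000 UMIs. Cells with Lyve1, Folr2 or Timd4 and no Ccr2 made up 53.7% and 57.7% of sham macrophages, 35.2% and 33.4% of those of the knockout-labelled libraries and 28.4% and 36.9% in irradiated wild type. Cells with Ccr2 and none of the other markers made up 7.66% and 6.68%, 28.5% and 32.5%, and 31.0% and 26.9% in the same order. Cells with both kinds of marker made up 2.62% and 1.66% in sham and 15.1% and 13.6% in the knockout-labelled libraries, and cells with neither made up 36.1% and 33.9% and then 21.2% and 20.5%. Sham and knockout-labelled libraries did not overlap in any of these 4 shares, and the exact two-sided permutation test gave p = 0.33 for each (n = 2 each), the smallest it can give.

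**Figure D3:**
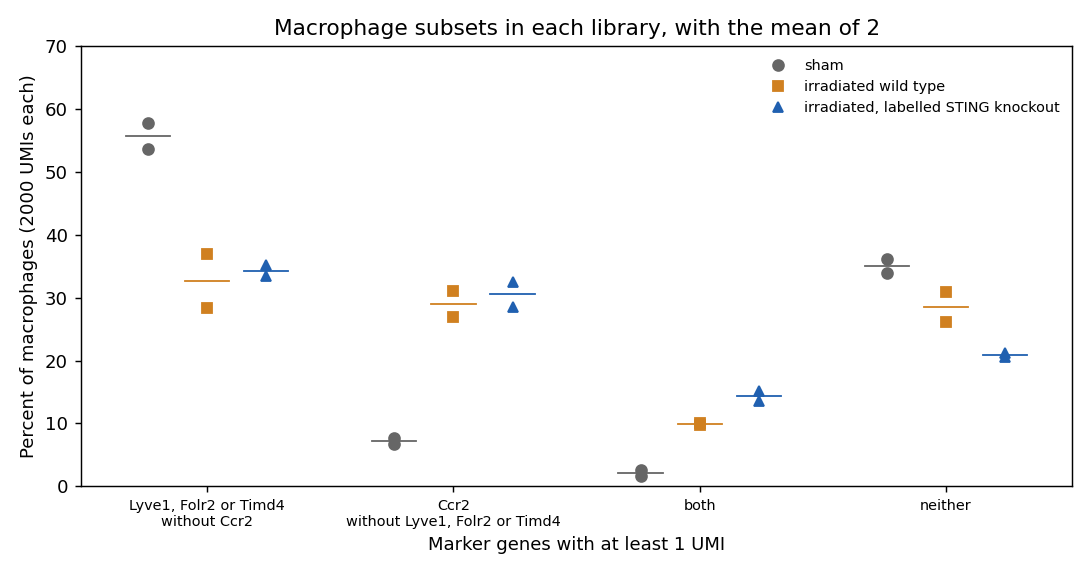
Percent of macrophages, each thinned to 2000 UMIs, in 4 classes set by detection of Lyve1, Folr2 or Timd4 and of Ccr2; each point is a library, coloured by group. The class with Lyve1, Folr2 or Timd4 alone is lower, and both classes with Ccr2 are higher, in the 4 irradiated libraries than in the 2 sham libraries.

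The contrast was repeated within subsets of macrophages with all UMIs, so without thinning. The first subset had Lyve1, Folr2 or Timd4 and no Ccr2. The second had none of Lyve1, Folr2 and Timd4, and cells with Ccr2 stayed in it. Median depths were 5109 to 5569 UMIs in sham macrophages and 8794 to 9199.5 in those of the knockout-labelled libraries. Lack of a marker was therefore a stricter condition in the latter. The part of depth and of Ccr2 cells in the subset results was not tested. In the first, 57 of 11821 genes (0.482%) were higher and 134 (1.13%) lower than in sham, and in the second 405 of 11741 (3.45%) were higher and 424 (3.61%) lower. Cd163 fell within both: from 530 and 492 CPM in sham to 241 and 208 CPM in the knockout-labelled libraries in the marked cells (log2 -1.18, SE 0.13, adjusted p = 0.0068), and from 95.5 and 87.0 CPM to 16.1 and 13.98 CPM in the others (log2 -2.60, SE 0.22). Sgce fell by 1.81 in the marked cells and by 3.72 in the others. The resident macrophage list as a whole moved little in the marked cells, where 2 of 26 tested genes fell and 1 rose (median -0.04). In the others 8 of 21 tested genes fell and 1 rose (median -0.54). The subsets were themselves set by genes of this list, such as Timd4. Mmp12 rose by 1.10 in the cells without resident markers, while its log2 difference in the marked cells was -0.19 (adjusted p = 0.65), and Ear2 gave 1.12 and -0.22. Whether these effects differed between the subsets was not tested.

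Genes of DNA replication and mitosis rose as a group in macrophages: 25 of 38 tested members were called higher and none lower, with a median log2 difference of 0.62. The ones that rose include both S-phase and mitotic genes. Top2a, the topoisomerase that untangles replicated chromosomes, was at 53.003 and 52.1 CPM in sham, 95.1 and 94.2 CPM in the knockout-labelled libraries and 112 and 101 CPM in irradiated wild type (log2 0.85 against sham, SE 0.08, adjusted p = 0.0037). Pclaf, a PCNA-binding factor, was at 19.4 and 21.7 CPM in sham and 49.5 and 60.8 CPM in the knockout-labelled libraries (log2 1.42, SE 0.13), and the kinetochore motor gene Cenpe rose by 0.91 (SE 0.11). In irradiated wild type 30 of the 38 rose, with a median of 0.91, and the direct test of the irradiated groups called 1 member lower in the knockout-labelled libraries. The count of rises was 5 without knockout-labelled library 2, 14 and 15 without sham library 1 and 2, and 3 at the 5% mitochondrial limit. By subset, 21 of 38 rose in macrophages without Lyve1, Folr2 and Timd4 (median 0.74) and 1 of 38 in the marked macrophages (median 0.25).

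Immediate early genes, which respond within minutes to stimulation and also to tissue dissociation, fell in macrophages: 14 of 25 tested members were called lower and none higher, with a median of -0.47. Jun, a subunit of the AP-1 factor, was at 2784 and 2817 CPM in sham, 1740 and 1471 CPM in the knockout-labelled libraries and 1932 and 2077 CPM in irradiated wild type (log2 -0.80, SE 0.09, adjusted p = 0.0046). Klf2, a Krüppel-like factor that restrains inflammatory activation, was at 2212 and 2040 CPM in sham and 983 and 860 CPM in the knockout-labelled libraries (log2 -1.21, SE 0.11), and Myc fell from 37.9 and 41.3 CPM to 18.6 and 21.5 CPM. The knockout-labelled libraries were the lowest of all 6 for each of these 3 genes. In irradiated wild type 4 of the 25 fell and 2 rose against sham, and the direct test called 3 lower in the knockout-labelled libraries. The count of falls was 2 without knockout-labelled library 2, 6 without knockout-labelled library 1, 7 without either sham library and 2 at the 5% mitochondrial limit.

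Interferon-stimulated genes gave few calls against sham in the knockout-labelled macrophages. Of 56 tested members 1 rose, Isg15, and 1 fell, Oas2, and the median was 0.17, with 44 members above 0. In irradiated wild type 43 of the same genes rose and none fell, with a median of 0.92, and the direct test of the irradiated groups called 9 lower and none higher in the knockout-labelled libraries. Irf7, the master regulator of type I interferon induction (chr7:141262706-141266481, minus strand), was at 40.9 and 44.3 CPM in sham, 42.6 and 64.6 CPM in the knockout-labelled libraries and 222 and 168 CPM in irradiated wild type. Its log2 difference was 0.33 against sham (SE 0.21, adjusted p = 0.36) and -1.86 against irradiated wild type (adjusted p = 0.026). Ifit3, whose promoter is shown above, was at 27.1 and 25.0 CPM in sham, 25.3 and 42.5 CPM in the knockout-labelled libraries and 113 and 88.8 CPM in irradiated wild type (log2 0.38 against sham, adjusted p = 0.36, and -1.57 against irradiated wild type, adjusted p = 0.041). For both genes knockout-labelled library 1 lay within or next to the sham values, library 2 lay above them, and neither reached the irradiated wild-type libraries. Cxcl10, a T cell attracting chemokine, was at 131 and 108 CPM in sham, 117 and 163 CPM in the knockout-labelled libraries and 449 and 346 CPM in irradiated wild type (log2 0.24 against sham, adjusted p = 0.48, and -1.50 against irradiated wild type, adjusted p = 0.036).

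Isg15, the called rise of the list, was at 29.5 and 37.7 CPM in sham, 56.0 and 100 CPM in the knockout-labelled libraries and 108 and 98.3 CPM in irradiated wild type. It rose by 1.22 (SE 0.26, adjusted p = 0.036), and its call was lost without sham library 1 (adjusted p = 0.13), sham library 2 (0.09), knockout-labelled library 2 (0.086) or either irradiated wild-type library. Without knockout-labelled library 1 the list had 6 rises and no falls with a median of 0.34, and without knockout-labelled library 2 no rise and a median of -0.00, so the 2 libraries differed in this list. Ifnb1, interferon beta, was at 0.0845 and 0.14 CPM in sham, 0.423 and 0.32 CPM in the knockout-labelled libraries and 1.32 and 2.55 CPM in irradiated wild type. Of 19 genes of cytosolic DNA and RNA sensing Ikbke, a kinase that activates IRF factors, rose from 2.45 and 3.22 CPM to 9.603 and 9.31 CPM (log2 1.72, SE 0.16, adjusted p = 0.0037), and Cgas, the DNA sensor upstream of STING, rose by 0.45, a call lost in each of the 6 leave-one-out fits.

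No cytokine or chemokine gene of the lists was called higher in the knockout-labelled macrophages. Of 23 inflammatory cytokine and regulator genes 3 fell (Il1a, Nfkbiz and Tnf), and of 23 chemokine genes 3 fell, while in irradiated wild type 7 and 5 of these genes rose. Among the chemokine genes that fell was Ccl5 (log2 -0.89 against sham), whose log2 difference turned to 0.95 with predicted doublets removed. Tnf was at 215 and 215 CPM in sham, 150 and 148 CPM in the knockout-labelled libraries and 260 and 315 CPM in irradiated wild type (log2 -0.53 against sham, SE 0.10, adjusted p = 0.023, and -0.95 against irradiated wild type, adjusted p = 0.017). Ccl3, a chemokine that draws monocytes, was at 625 and 692 CPM in sham, 384 and 451 CPM in the knockout-labelled libraries and 682 and 805 CPM in irradiated wild type (log2 -0.66, adjusted p = 0.019, and -0.83, adjusted p = 0.037). The 3 falls among the cytokine genes became 1 without sham library 1 and none without sham library 2, knockout-labelled library 1 or knockout-labelled library 2. For Tnf and Ccl3 the knockout-labelled libraries were the lowest of the 6. The call of Tnf against sham was lost without sham library 1 (adjusted p = 0.069), sham library 2 (0.08), knockout-labelled library 1 (0.093) or knockout-labelled library 2 (0.15), and that of Ccl3 without sham library 2 (0.078), knockout-labelled library 1 (0.085) or knockout-labelled library 2 (0.051).

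Other macrophage groups moved in part, and the counts of the chemokine, complement, metallothionein and glycolysis lists were not repeated with libraries left out. Of 28 complement and phagocytosis genes 6 fell and 1, the integrin gene Itgax, rose (adjusted p = 0.011, lost without sham library 2 at 0.061 or knockout-labelled library 2 at 0.052). Apoe, the lipid carrier and an abundant transcript, was at 19105 and 20732 CPM in sham, 11890 and 10519 CPM in the knockout-labelled libraries and 12613 and 12853 CPM in irradiated wild type (log2 -0.83, SE 0.07, adjusted p = 0.0028). Of 18 metallothionein, heme and iron genes 8 fell and 1, the glutathione synthesis gene Gclm, rose, and of 22 glycolysis genes 4 rose (Gapdh, Mif, Pfkp and Pgk1) and 1, the hexokinase gene Hk2, fell. Among p53 targets 3 rose (Phlda3, Bax and Rps27l) and 2 fell (Btg2 and Plk2) of 37 tested, with a median of 0.07, and 1 rose and none fell without knockout-labelled library 1 or 2. Phlda3, an inhibitor of Akt signalling, was at 14.8 and 14.2 CPM in sham, 27.0 and 24.6 CPM in the knockout-labelled libraries and 40.5 and 43.7 CPM in irradiated wild type. It rose by 0.83 (SE 0.09, adjusted p = 0.005) and was lower than in irradiated wild type by a log2 difference of -0.71 (adjusted p = 0.036), so its libraries fell into 3 separate levels. Cdkn1a was at 439 and 503 CPM in sham, 391 and 368 CPM in the knockout-labelled libraries and 619 and 722 CPM in irradiated wild type (log2 -0.31 against sham, adjusted p = 0.11, and -0.82 against irradiated wild type, adjusted p = 0.036).

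Aldh1a3 (chr7:66390890-66427517, minus strand), a retinaldehyde dehydrogenase that makes retinoic acid, stood apart from all of these. It was at 0.507 and 0.0699 CPM in sham macrophages, 0.387 and 0.0639 CPM in irradiated wild type and 25.0 and 25.6 CPM in the knockout-labelled libraries (log2 6.52 against sham, SE 0.41, adjusted p = 0.0013, and 6.86 against irradiated wild type, adjusted p = 0.0033). In endothelial cells it was at 3.70 and 4.16 CPM in sham, 0.388 and 1.46 CPM in irradiated wild type and 29.9 and 25.7 CPM in the knockout-labelled libraries (log2 2.81 against sham, SE 0.28, and 4.85 against irradiated wild type, adjusted p = 0.0016). In B cells it was at 0 and 0.642 CPM in sham, 0 and 0.342 CPM in irradiated wild type and 9.44 and 13.4 CPM in the knockout-labelled libraries, without a call (adjusted p = 0.16). Both knockout-labelled libraries were thus above the other 4 in all 3 lineages in which the gene was tested. Rpgrip1, a photoreceptor cilium gene, was another such gene in macrophages, at 8.37 and 9.30 CPM in sham, 23.4 and 28.5 CPM in the knockout-labelled libraries and 10.5 and 10.1 CPM in irradiated wild type. Ccdc152 was at 7.27 and 8.74 CPM, 24.2 and 21.3 CPM, and 6.03 and 4.598 CPM in the same order, but it overlaps Selenop, an abundant macrophage gene, and reads of the pair may not be separable.

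Markers of other cells moved beside these macrophage results. Cardiomyocyte genes summed to 396 and 381 CPM in sham macrophages, 233.5 and 212.8 CPM in the knockout-labelled libraries and 308 and 262 CPM in irradiated wild type, and 8 of 10 fell (5 without sham library 1 and 4 without knockout-labelled library 2). Neutrophil markers summed to 958 and 7230 CPM in sham and 1524 and 1652 CPM in the knockout-labelled libraries, with none called, and erythroid markers to 639 and 194 CPM and 122 and 6.67 CPM. The part of these transcripts in the macrophage calls was not tested. Of 17 cytotoxic lymphocyte genes 5 were called lower in macrophages (median -1.15), and after removal of predicted doublets none was called and the median was 0.60.

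**Figure D4:**
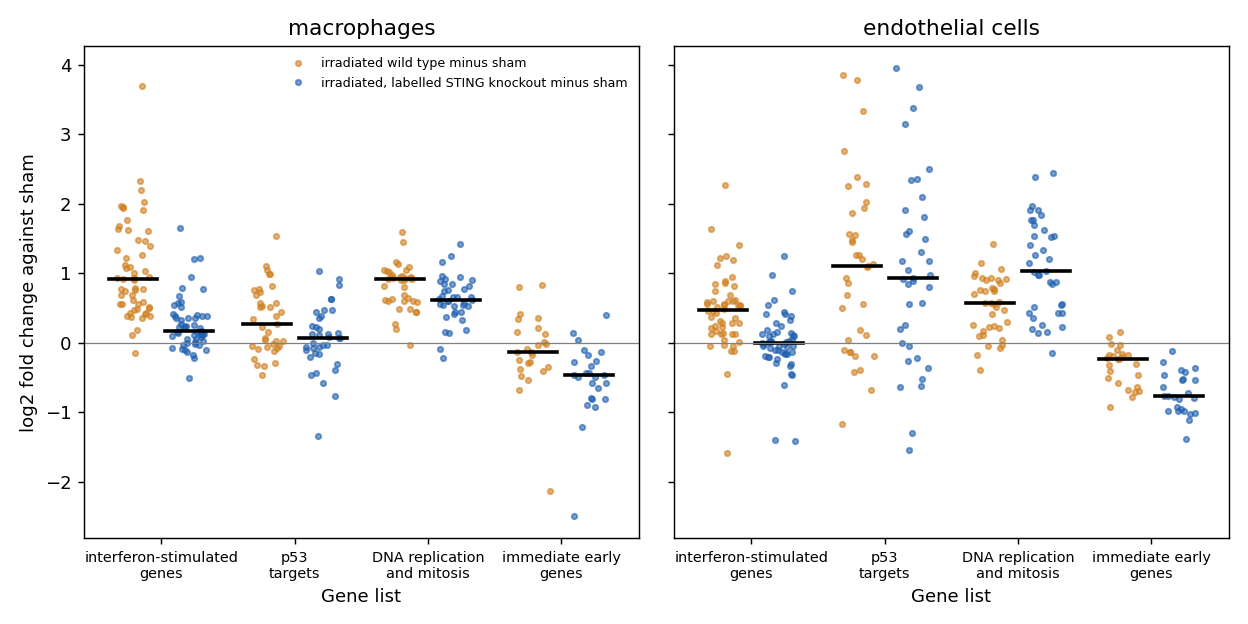
Log2 difference from sham of each tested gene in 4 lists (interferon-stimulated genes, p53 targets, DNA replication and mitosis, immediate early genes) in macrophages and endothelial cells, for irradiated wild type and for the knockout-labelled libraries, which share the sham libraries; each dot is a gene and the bar is the list's median. The interferon median in macrophages is 0.92 in irradiated wild type and 0.17 in the knockout-labelled libraries, and the p53 median in endothelial cells is 1.11 and 0.94.

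Endothelial cells of the knockout-labelled libraries differed from sham in 1079 of 11703 tested genes, 486 higher (4.15%) and 593 lower (5.07%), and no called gene had overlapping libraries. Among the genes that rose were 23 p53 targets, 15 replication genes and 9 matrix genes, and among those that fell were 11 capillary and artery genes, 7 haemostasis genes and 14 immediate early genes. In irradiated wild type 315 genes (2.69%) were higher and 216 (1.85%) lower than sham, and the direct test between the irradiated groups called 4 higher (0.0342%) and 7 lower (0.0598%) in the knockout-labelled libraries. The sums covered 314 to 383 cells in sham and 637 and 349 cells in knockout-labelled libraries 1 and 2. The mitochondrial share was lower beside these calls: the median per endothelial cell was 5.64% and 5.38% of UMIs in sham, 3.97% and 3.88% in the knockout-labelled libraries and 4.73% and 5.43% in irradiated wild type, and 12 of 13 mitochondrially encoded genes were called lower, with a median of -0.42. Cardiomyocyte markers summed to 881 and 995 CPM in sham endothelial cells, 610.4 and 611 CPM in the knockout-labelled libraries and 608 and 578 CPM in irradiated wild type, and 6 of 10 were called lower (2 without sham library 2 and 1 without knockout-labelled library 1 or 2). The part of either in the endothelial results was not tested. The 1079 calls became 190 and 147 without knockout-labelled library 1 and 2, 578 and 619 without sham library 1 and 2, and 224 at the 5% mitochondrial limit.

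p53 targets rose together in endothelial cells: 23 of 37 tested members were called higher and 2 lower, with a median log2 difference of 0.94 against -0.01 over all tested genes. In irradiated wild type 21 rose and 1 fell, with a median of 1.11, and the direct test called none of them different between the irradiated groups. Gdf15 (chr8:70629393-70632456, minus strand), a secreted stress hormone of the TGF-beta family, was at 54.7 and 32.6 CPM in sham, 520 and 589 CPM in the knockout-labelled libraries and 530 and 709 CPM in irradiated wild type (log2 3.68, SE 0.23, adjusted p = 0.00016). It was detected in 10.8% and 7.57% of sham endothelial cells and 48.7% and 47.0% of those of the knockout-labelled libraries, and after thinning to 2000 UMIs in 4.53% and 2.53% and in 34.8% and 35.6%. B cells, at median depths of 2261 to 2615 UMIs in sham and 3126 to 3192 in the knockout-labelled libraries, gave 1.44% and 0.823% and then 3.79% and 2.09% with all UMIs, and thinned 0.890% and 0.171% and then 2.39% and 1.14%. The irradiated groups overlapped in Gdf15 and both lay far above sham.

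Members with roles in apoptosis, arrest and p53 control rose alike. Bax, which permeabilises mitochondria in apoptosis, was at 139 and 149 CPM in sham, 514 and 492 CPM in the knockout-labelled libraries and 571 and 530 CPM in irradiated wild type (log2 1.80, SE 0.09, adjusted p = 9e-05). Phlda3 was at 67.0 and 74.6 CPM in sham and 276 and 255 CPM in the knockout-labelled libraries (log2 1.90, SE 0.11), and Zmat3, an RNA-binding p53 target, at 9.05 and 17.0 CPM and 77.2 and 74.6 CPM (log2 2.50, SE 0.22). Mdm2, the ubiquitin ligase that limits p53, was at 55.9 and 50.2 CPM in sham and 120 and 120 CPM in the knockout-labelled libraries (log2 1.18, SE 0.17, adjusted p = 0.0056). Ccng1, whose upstream p53 element is shown above, rose from 44.8 and 43.5 CPM to 86.2 and 86.6 CPM (log2 0.97, SE 0.11), and Trp53, the gene of p53 itself, from 77.7 and 78.4 CPM to 139 and 152 CPM. Cdkn1a was at 579 and 669 CPM in sham, 1114 and 1060 CPM in the knockout-labelled libraries and 1288 and 1720 CPM in irradiated wild type. It rose by 0.80 (SE 0.13, adjusted p = 0.0097), a call lost without sham library 1 (adjusted p = 0.055), knockout-labelled library 1 (0.076) or knockout-labelled library 2 (0.068). Perp, a desmosomal p53 target, and Btg2, an antiproliferative gene, were the list's members that fell, by log2 differences of -1.54 and -0.52. The count of rises in the list was 15 to 23 over the leave-one-out fits, with 15 without knockout-labelled library 1, and 13 at the 5% mitochondrial limit.

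**Figure D5:**
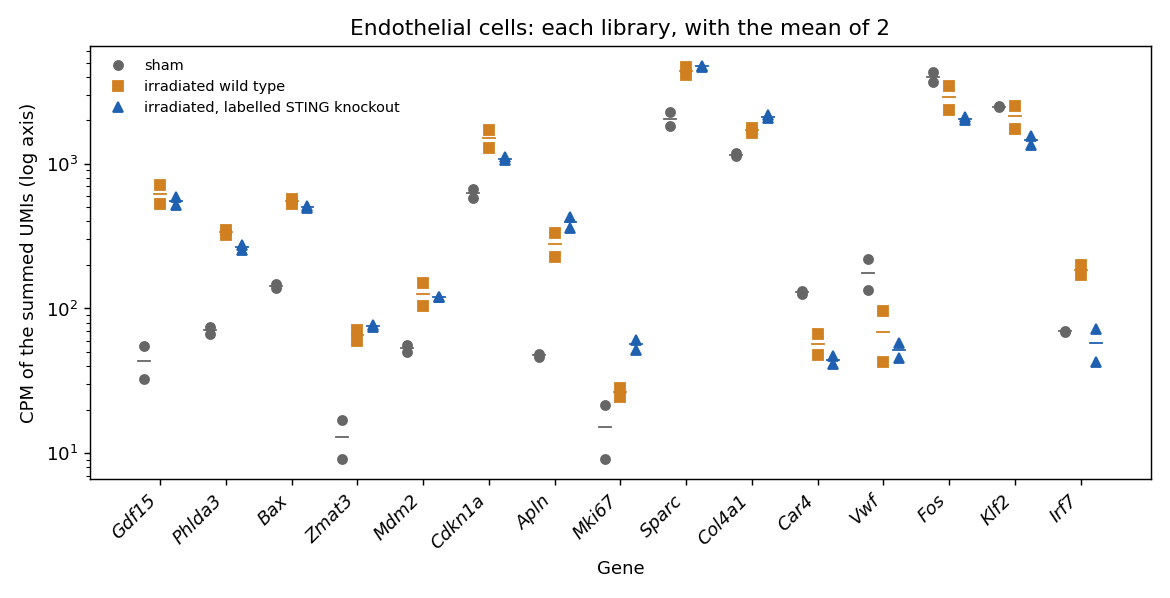
Level in CPM (log axis) of 15 genes in summed endothelial cells; each point is a library, coloured by group, and the bar is the mean of the 2 libraries. Gdf15, Phlda3, Bax, Zmat3 and Apln lie above sham in all 4 irradiated libraries, Car4 lies below sham in all 4, and Irf7 is highest in the 2 irradiated wild-type libraries.

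Replication and mitosis genes also rose in endothelial cells. Of 38 tested members 15 rose and none fell (median 1.03), while none was called in irradiated wild type (median 0.57) or between the irradiated groups. Mki67, the proliferation marker, was at 9.05 and 21.4 CPM in sham, 52.0 and 60.9 CPM in the knockout-labelled libraries and 28.3 and 24.4 CPM in irradiated wild type (log2 1.83, SE 0.28, adjusted p = 0.0069, and 0.061 without knockout-labelled library 2). The count of rises fell to 0 without knockout-labelled library 2, 2 without sham library 1, 8 without sham library 2 or knockout-labelled library 1, and 0 at the 5% mitochondrial limit. With endothelial cells limited to those with Cdh5, 17 rose, and with Cdh5 and without Ptprc, 25 rose. Both rules were chosen after the data had been seen, and neither was repeated with libraries left out.

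Of 27 collagen and matrix genes 9 rose and 8 fell, with a median of -0.32. Sparc, a collagen-binding matricellular protein, was at 1815 and 2284 CPM in sham, 4663 and 4780 CPM in the knockout-labelled libraries and 4689 and 4089 CPM in irradiated wild type (log2 1.20, SE 0.11, adjusted p = 0.0011). Col4a1, a chain of basement membrane collagen, was at 1131 and 1187 CPM in sham and 2068 and 2166 CPM in the knockout-labelled libraries (log2 0.87, SE 0.07), and Col4a2, its partner chain, rose by 0.99 (SE 0.08). The other members that rose were Col15a1, Lamc1, Lamb1, Lama4, Nid1 and Hspg2, and those that fell were Prelp, Col1a2, Fbln2, Mgp, Dcn, Lum, Fbln5 and Bgn. Without knockout-labelled library 1 the counts were 6 up and 3 down, and without knockout-labelled library 2 they were 5 and 3. Markers of fibroblasts, which make interstitial matrix, summed to 754 and 995 CPM in sham endothelial cells, 291 and 303 CPM in the knockout-labelled libraries and 379 and 421 CPM in irradiated wild type, with 5 of 7 called lower. Mural cell markers summed to 3875 and 3255 CPM and then 1779 and 1592 CPM, with 5 of 6 called lower. Without knockout-labelled library 1 or 2 each of these counts of 5 became 3. The part of those cells in the falling genes was not tested.

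Vessel-growth genes moved in both directions. Apln, the apelin peptide of sprouting tip cells, was at 46.1 and 48.6 CPM in sham, 359 and 432 CPM in the knockout-labelled libraries and 331 and 227 CPM in irradiated wild type (log2 3.06, SE 0.19, adjusted p = 0.00016). Angpt2, an antagonist of the receptor Tie2, rose from 21.8 and 24.3 CPM to 50.2 and 56.9 CPM (log2 1.20, SE 0.16), while Tek, which encodes Tie2, was lower by a log2 difference of -1.09, a call lost without knockout-labelled library 1 (adjusted p = 0.081) or 2 (0.089). Of 22 junction and angiogenesis genes 4 rose (Nrp2, Angpt2, Pdgfb and Apln) and 3 fell (Notch1, Tek and Vegfc). Ltc4s, the leukotriene C4 synthase gene, was at 11.1 and 19.8 CPM in sham, 163 and 148 CPM in the knockout-labelled libraries and 155 and 192 CPM in irradiated wild type (log2 3.30, SE 0.22). Ift122, a cilium transport gene, was at 32.5 and 51.5 CPM in sham, 258 and 324 CPM in the knockout-labelled libraries and 263 and 170 CPM in irradiated wild type.

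Genes of differentiated capillaries and arteries fell in part. Of 21 capillary and artery genes 11 fell and 2, Fabp5 and Gpihbp1, rose, with a median of -0.50, and in irradiated wild type 8 fell and 2 rose. Car4, a carbonic anhydrase on the capillary surface, was at 126 and 133 CPM in sham, 46.8 and 41.6 CPM in the knockout-labelled libraries and 47.4 and 66.3 CPM in irradiated wild type (log2 -1.54, SE 0.15, adjusted p = 0.0016). The count of falls was 2 and 3 without knockout-labelled library 1 and 2, and no member was called higher in those fits or without sham library 1. Pdlim3, a cytoskeletal adaptor, fell from 88.0 and 115 CPM to 19.0 and 18.1 CPM (log2 -2.45, SE 0.16), and Cdkn1c, a kinase inhibitor of quiescent cells, from 308 and 332 CPM to 136 and 105 CPM (log2 -1.41, SE 0.13). Of 17 haemostasis and tone genes 7 fell and 1 rose, and none fell without knockout-labelled library 1 or 2 and 2 without sham library 1. Vwf, the platelet-binding factor of venous and larger vessels, was at 219 and 135 CPM in sham, 45.3 and 57.8 CPM in the knockout-labelled libraries and 42.7 and 95.8 CPM in irradiated wild type, and its call was lost without sham library 1 (adjusted p = 0.076), knockout-labelled library 1 (0.13) or knockout-labelled library 2 (0.085). Of 18 endocardial, venous and lymphatic genes 6 fell and none rose, with 2 falls without sham library 1, knockout-labelled library 1 or knockout-labelled library 2 and 11 without either irradiated wild-type library.

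Immediate early genes fell in endothelial cells as they did in macrophages, with 14 of 25 lower, none higher and a median of -0.77, and none was called in irradiated wild type or between the irradiated groups. Fos was at 4299 and 3698 CPM in sham, 2016 and 2103 CPM in the knockout-labelled libraries and 2372 and 3457 CPM in irradiated wild type. It was lower by a log2 difference of -0.96 (SE 0.15, adjusted p = 0.0086), a call lost without knockout-labelled library 1 (adjusted p = 0.075) or 2 (0.073). No member of the list was called without knockout-labelled library 1 or 2, 2 were called without sham library 1 and 8 without sham library 2.

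Interferon-stimulated genes gave 1 call in endothelial cells: of 54 tested, Rnf213 was called higher and none lower, with a median of 0.00, against 7 higher and none lower in irradiated wild type with a median of 0.47. Irf7 was at 70.3 and 69.1 CPM in sham, 42.3 and 72.3 CPM in the knockout-labelled libraries and 200.3 and 171 CPM in irradiated wild type. Its log2 difference was -0.31 against sham (adjusted p = 0.43) and -1.72 against irradiated wild type (adjusted p = 0.039), and it was the member called between the irradiated groups. Cxcl10 was at 38.3 and 25.0 CPM in sham and 43.1 and 319 CPM in the knockout-labelled libraries, so the 2 libraries differed widely, and the gene was not called (adjusted p = 0.11). Neutrophil markers in the endothelial sums were high in a single library: they summed to 1134 and 10934 CPM in sham and 1855 and 1713 CPM in the knockout-labelled libraries. Their part in the endothelial calls was not tested.

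T and B cells, with 119 to 257 and 487 to 766 cells per library, gave almost no calls. In T cells none of 7035 tested genes was higher (0%) and 1 was lower (0.0142%), with 636 genes at an unadjusted p under 0.05, and DESeq2 called 3 genes. In B cells 1 of 10368 was higher and 1 lower (0.00965% each), with 1018 at an unadjusted p under 0.05, and DESeq2 called 33. All of the edgeR calls were the library-wide transcripts given above: Gm10076 fell from 2079 and 2735 CPM to 599 and 552 CPM in T cells and from 1803 and 2156 CPM to 413 and 473 CPM in B cells, and AY036118 rose from 32.8 and 41.1 CPM to 111 and 117 CPM in B cells. The adjusted p was 0.008 for Gm10076 in T cells, lost without irradiated wild-type library 1 (0.069) or knockout-labelled library 2 (0.092), and 0.011 in B cells, lost without knockout-labelled library 1 (0.35) or 2 (0.45). That of AY036118 in B cells was 0.045 and was kept in 1 of the 6 leave-one-out fits. The interferon list had a median log2 difference of -0.06 in T cells (43 genes tested) and -0.27 in B cells (54 tested), the p53 list -0.09 and -0.03, the replication list 0.30 and 0.54 and the immediate early list -0.53 and -0.58, with none of these members called.

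Whether the effect against sham differed between lineages was tested with a lineage by group term. Against macrophages, endothelial cells differed in 363 of 14403 genes, 209 with a higher effect (1.45%) and 154 with a lower one (1.07%). T cells differed in 57 of 12993, 11 higher (0.0847%) and 46 lower (0.354%). B cells differed in none of 13194 (0%), with 1004 at an unadjusted p under 0.05. Of 38 p53 targets the effect was higher in endothelial cells than in macrophages in 18 and lower in 1, with a median difference of 0.81. Gdf15 gave 3.68 in endothelial cells and 0.24 in macrophages, a difference of 3.45 (adjusted p = 2.8e-06), Mdm2 1.18 and -0.05 (difference 1.25, adjusted p = 0.0038) and Cdkn1a 0.80 and -0.31 (difference 1.12, adjusted p = 0.00064). Of 56 interferon-stimulated genes the effect was lower in endothelial cells in 2, Irf7 and Ms4a4c, with a median difference of -0.16, and of the replication genes it was higher in 1. The effect on Ccr2 was smaller in T cells than in macrophages by a log2 difference of -1.88 (adjusted p = 0.0039).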

How the data were processed

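Cells were labelled as fresh CD45+ cardiac cells, profiled with 10x Chromium 3' v3 chemistry; raw UMI counts per gene and barcode were deposited by the authors as Cell Ranger 5.0.0 matrices on mm10, with Seurat also named, per the submitters' processing notes. The strand setting is not stated in these sources. The matrices hold 32285 genes, and 32158 were placed on GRCm38. Groups came from the labels. Marker-set lineages were summed per library and tested with edgeR 4.0.16 (R 4.3.3, TMM scaling, filterByExpr, quasi-likelihood, 6 libraries, 3 residual degrees of freedom, Benjamini-Hochberg adjustment), checked on simulated counts. Shares used exact permutation tests (scipy 1.17.1). The depth was 31650962 to 59675213 UMIs per library.

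The members, lists and genes were chosen with earlier results of these data known. Named genes were, per lineage, up to 8 rises and 8 falls by log2 difference among called genes with a mean of at least 20 CPM in the higher group, up to 4 called genes per list by adjusted p, and a fixed set; others are marked as chosen after their values were seen. Doublets were kept, because the scrublet threshold marked at most 3 cells per library; an alternative removed 0.8% per 1000 cells. Other alternatives were DESeq2 1.42.0, its size factors, no filter, thinning to 2000 UMIs, other marker and mitochondrial limits, a replicate block and leaving out each library. A few items withheld for evaluation are not reported here.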

Additional observations from a re-analysis of the deposited data

Results flagged for a closer look

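The effect of the knockout-labelled irradiated group against sham differed between lineages in 24 comparisons of a gene named above or chosen by the same rule, with Il1r2, Kcnn4 and Olfm1 in both lineages, by the lineage by group term of edgeR's quasi-likelihood test (Benjamini-Hochberg adjusted). Values are log2 effects in the other lineage minus the effect in macrophages. In endothelial cells the effect was higher for the p53 targets Gdf15 (3.45), Zmat3 (1.86), Bax (1.34), Mdm2 (1.25), Cdkn1a (1.12), Phlda3 (1.08) and Ccng1 (0.78). It was also higher for Ccdc184 (4.94), Ltc4s (3.61) and Ift122 (2.95), and for genes that fell in macrophages: Sgce (2.36), Cpne8 (2.32), Tcim (2.17) and Ccn1 (2.14). It was lower for Aldh1a3 (-3.69), Cd24a (-2.37), Olfm1 (-2.09), Kcnn4 (-1.98), Il1r2 (-0.74) and Irf7 (-0.62). Aldh1a3 reached similar levels in the knockout-labelled libraries, 25.0 and 25.6 CPM in macrophages and 29.9 and 25.7 CPM in endothelial cells. Its sham levels differed, at 0.507 and 0.0699 CPM in macrophages, near the floor, and 3.70 and 4.16 CPM in endothelial cells. In T cells it was lower for Ccr2 (-1.88), Kcnn4 (-1.88), Olfm1 (-1.80) and Il1r2 (-1.21). Il1r2 was at 72.4 and 304 CPM in sham endothelial cells, and sham library 2 was also the library with the highest neutrophil markers. In T cells the neutrophil marker S100a8 was detected in 11.9% to 47.9% of cells per library over all 6 libraries. The part of neutrophil transcripts in the Il1r2 differences was not tested in either lineage.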

How the results depend on the processing

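Counts of genes called against sham, for macrophages, T, B and endothelial cells, were 916, 1, 2 and 1079. Without a filter they were 1939, 280, 483 and 2155. Keeping cells that met more than 1 lineage rule gave 470, 5, 161 and 81. The 5% mitochondrial limit gave 27, 0, 5 and 224. Thinning gave 432 in macrophages, 63 in B cells and 265 in endothelial cells. DESeq2 gave 3 in T, 33 in B and 709 in endothelial cells. B cells gave 1 from the 4 libraries alone and 1 with doubled marker limits. Leaving out each library gave 148 to 703, 0 to 82, 0 to 69 and 147 to 1429. For the lineage terms of T, B and endothelial cells, 57, 0 and 363 calls became 227, 270 and 1036 without a filter, 0, 2 and 8 with overlapping cells kept, 24, 68 and 139 when thinned, 17 in T and 76 in endothelial cells at the 5% limit, 5 in T from the 4 libraries alone, and 65 to 262, 0 to 164 and 136 to 282 without a library. The cause was not tested, though the 5% limit leaves fewer cells. Requiring Cdh5 for endothelial cells, chosen after the data had been seen, gave 1257 calls, 1351 with no Ptprc, and 412 for the lineage term.

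Replicate numbers were shared across groups, and the labels used do not say whether same-numbered libraries were paired. Deviations of same-numbered sham and knockout-labelled libraries correlated at 0.008 in macrophages, -0.057 in T, -0.071 in B and 0.061 in endothelial cells. Irradiated wild type correlated with sham at 0.159 in macrophages and 0.117 in B cells, and with the knockout-labelled libraries at 0.211 in B cells. Its other correlations were -0.118 to 0.023. With the replicate block the calls were 750, 23, 1 and 772.

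Differences in cell shares kept their sign under all alternatives run, with ranges of -5.42 to -0.051 points for macrophages (5% limit for the smallest), -2.89 (overlapping cells kept) to -0.55 for T cells, 0.30 to 3.47 (thinned) for B cells and 1.29 to 4.56 (5% limit) for endothelial cells. Of the named genes called, 38 of 103 in macrophages and 34 of 113 in endothelial cells kept their call without each library in turn. Directions reversed for Ahsg in endothelial cells (0.071, thinned) and in macrophages for Cd2 (-0.27, thinned), H2-DMb2 (-0.040, overlapping cells kept) and, with doublets removed, Ccl5 (0.95), Gzma (0.25), Klre1 (0.32), Nkg7 (0.76) and Prf1 (0.50). T cells, with the fewest cells, also had the fewest genes tested (7035). Direct tests between the irradiated groups were not repeated with libraries left out.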
